A study of Mus musculus with 6 samples.

Results

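The genes described here encode the contractile apparatus of smooth muscle, with its anchors and its transcriptional regulators, measured in the larger proximal airways of mice that lack Foxp1 and Foxp4 in part of the airway epithelium. The set held 33 gene symbols that were chosen by name, and 32 of them matched a row of the array whose annotation gives exactly 1 symbol, out of 19938 such genes. The gene listed as Mkl1 was not matched by that symbol. The same gene stands in the annotation under its current symbol Mrtfa, and its values are given apart from the counts. Where several rows named a member, which was so for Myl6 and Tns1, the brightest of them, by its mean, stands for the gene.

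Smooth muscle shortens when calcium-activated myosin light chain kinase phosphorylates the light chain of smooth muscle myosin, which then pulls on filaments of smooth muscle actin. Tropomyosin, caldesmon and calponin sit along those filaments, dense bodies and dense plaques anchor them, and desmin filaments link the anchors. Serum response factor (SRF), together with its co-activators myocardin and MRTF-A, switches on most of these genes through a sequence named the CArG box. In the airway wall, bundles of such muscle lie below the epithelium and narrow the lumen when they contract.

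Every mouse was 9-week-old, had a mixed strain background (C57BL/6 and 129X1) and carried Scgb1a1-Cre, a recombinase driven by the promoter of a club cell secretory gene. The 3 control arrays came from mice with Scgb1a1-Cre alone. The 3 mutant arrays came from mice that also carried Foxp1flox/flox and Foxp4flox/flox, so both floxed genes can be lost only where the driver has been active, which is airway epithelium and not the muscle described here. Forceps and scissors were used to take the airways from frozen, stained lung sections, and each sample was read on 1 array, with epithelium, muscle and the rest of the wall together. The series set these arrays beside lung mechanics after methacholine, an agent that makes airway muscle contract, and the mechanics were not analysed here. In such bulk samples, fewer cells of a type and less RNA per cell cannot be told apart.

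The targeted genes read lower in every mutant than in every control, with a log2 difference of -0.23 for Foxp1 and -0.69 for Foxp4. Neither passed limma's test over all genes (adjusted p = 0.444 and 0.3395), and 15.0% of all genes had groups that lay apart. Npy, which encodes the neuropeptide in the series title, was 5.05 higher on that scale and passed (limma adjusted p = 0.0067). The club cell markers Scgb1a1 and Cyp2f2 read between 12.13 and 13.04 on all 6 arrays, where the upper quartile of all rows lay between 7.83 and 7.89. Pearson correlations across genes were 0.992 between controls 2 and 3 and 0.972 and 0.978 between these and control 1, so control 1 stood apart from its group. Control 1 correlated at 0.983, 0.982 and 0.979 with mutants 1, 2 and 3, each higher than with either other control. Mutants 1 and 3 correlated at 0.993 with each other and at 0.983 with mutant 2.

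Airways of mutant mice showed 1 clear difference among these genes. Smtnl1, which encodes smoothelin-like 1, a calponin-homology protein that binds the contractile filaments and is known to act on myosin phosphatase, rose 3.70-fold. The principal contractile genes did not differ beyond the spread between arrays: Acta2, smooth muscle alpha actin, had a mean of 12.02 in both groups. Of the 32 members, limma's test (Benjamini-Hochberg adjusted p under 0.05 over all genes) called 1, Smtnl1, as higher and none as lower. The same test called 0.266% of all 19938 genes. At an unadjusted p under 0.05 there were 3 members, Smtnl1, Hhip and Smtnl2, against 10.1% of all genes. The arrays of both groups lay fully apart for 2 members, Smtnl1 and Hhip, against 15.0% of all genes. The median log2 difference over the members was 0.02, as it was over all genes, with 18 members above 0 and 14 below.

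**Figure D1:**
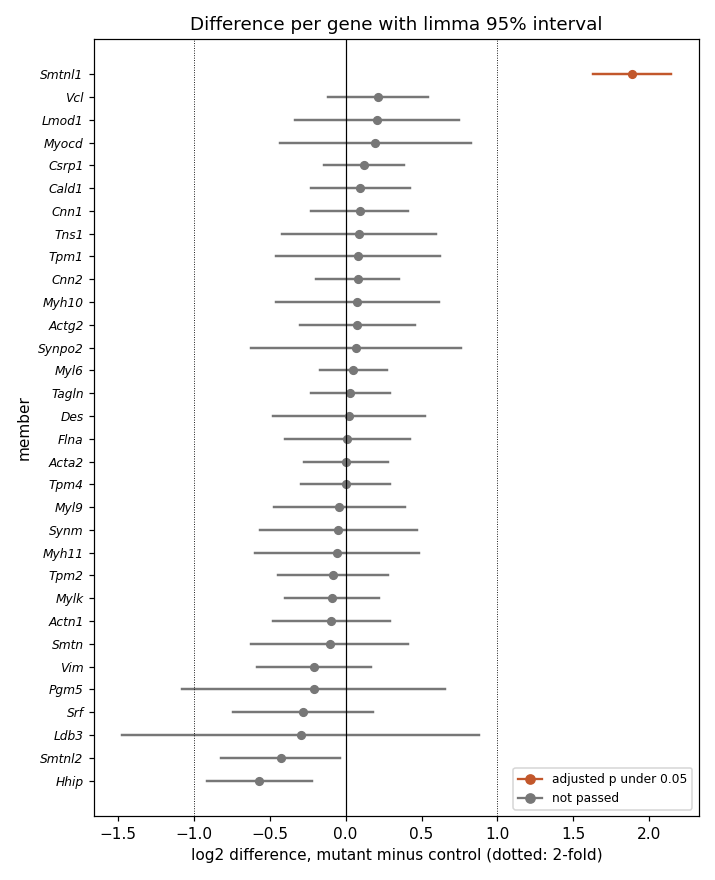
Log2 difference of mutant minus control (x axis) for each of the 32 members (y axis), with limma's 95% interval as a bar and dotted lines at a 2-fold difference. Smtnl1 at 1.89 lies beyond the 2-fold line, and the interval of every other member except Hhip and Smtnl2 includes 0.

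Smtnl1 (probe set 10484472, Entrez gene 68678) read 5.04, 4.88 and 5.04 on the log2 scale in controls and 6.77, 6.80 and 7.05 in mutants. All mutants were far above all controls, with means of 6.88 ± 0.15 and 4.99 ± 0.09 (SD, n = 3 each). The log2 difference was 1.89 (SE 0.11, 95% interval 1.63 to 2.14, limma adjusted p = 0.00368), higher in 3 of 3 mutants. By size this was number 20 of the 47 genes called as higher, and by p number 4 of all 53 called genes. A two-sided exact permutation of the 6 array labels gave p = 0.1, the smallest value that 3 against 3 allows. The control values lay not far above the lower quartile of all rows (4.42 to 4.50), and no detection calls were used here, so the fold is as measured. The difference was as large without control 1 (1.91) and without control 1 and mutant 2 (1.95, adjusted p = 0.00188). On all 6 arrays it no longer passed with an ordinary per-gene t statistic (adjusted p = 0.191) or with the replicate number as a block in limma (adjusted p = 0.0717). It also did not pass without controls 2 and 3 (1.84, adjusted p = 0.203), a setting that leaves 1 control array, assumed to vary as the mutants do. Over all settings tried its adjusted p ranged from 0.00139 to 0.203.

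The promoter of Smtnl1 is shown because this is the member that changed, in mice that lack a pair of forkhead factors. The run gives the 250 bases before the RefSeq start (GRCm38.p6, chr2:84822653-84822902, minus strand), 5′ to 3′, and the capitals mark the only match to the forkhead core letters TGTTTAC on either strand.
Smtnl1: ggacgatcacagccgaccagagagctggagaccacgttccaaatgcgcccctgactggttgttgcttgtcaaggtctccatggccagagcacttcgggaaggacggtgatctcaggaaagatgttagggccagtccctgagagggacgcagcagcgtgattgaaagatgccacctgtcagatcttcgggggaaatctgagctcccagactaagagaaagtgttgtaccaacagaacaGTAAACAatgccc
The match reads GTAAACA on the gene's strand, the reverse complement of TGTTTAC, and lies 13 to 7 bases before the start. Such a match was present in 3.17% of all 32851 RefSeq promoter windows of that length. Among the 28 members with a window, Cald1, with a log2 difference of 0.10, was the other with one. A match describes letters only.

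The genes beside Smtnl1 in the RefSeq gene order gave a check of whether a stretch of the chromosome moved with it. Its immediate neighbours Ube2l6 and Timm10 differed by 0.33 and 0.11 on the log2 scale, and neither passed. Ypel4, in the third place on one side, read 6.40, 6.18 and 6.08 in controls and 7.20, 7.02 and 7.73 in mutants. That difference of 1.10 (SE 0.19) did not pass (limma adjusted p = 0.125), although the groups did not overlap. The other 5 genes within 4 places differed by -0.15 to 0.13. Smtnl1 is known from skeletal as well as smooth muscle, so markers of skeletal muscle were read beside it. The mean over 12 such markers was 6.59, 6.00 and 6.13 in controls and 6.48, 6.20 and 6.02 in mutants, and none of the 12 passed. The 3 with the highest means were Tnnt3, Mb and Ckm. Tnnt3, a troponin T of fast skeletal fibres, read 10.11, 8.92 and 8.56 in controls and 9.99, 8.99 and 9.99 in mutants, so the groups overlapped (log2 difference 0.46, limma adjusted p = 0.827). Mb, myoglobin, and Ckm, muscle creatine kinase, which cardiac muscle also makes, differed by -0.21 and -0.47, with groups that overlapped. The part of such markers in the Smtnl1 difference was not tested.

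No such difference was measured for the other members of the smoothelin family. Smtn, the smoothelin of contractile smooth muscle cells, read 9.33, 8.82 and 8.67 in controls and 9.07, 8.51 and 8.92 in mutants, so the groups overlapped (log2 difference -0.11, SE 0.22). Smtnl2 read 7.96, 7.86 and 7.56 in controls and 7.66, 7.21 and 7.23 in mutants. Its difference of -0.43 had the sign opposite to that of Smtnl1, and 1 mutant lay above the lowest control (SE 0.16, unadjusted p = 0.0364, limma adjusted p = 0.460).

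**Figure D2:**
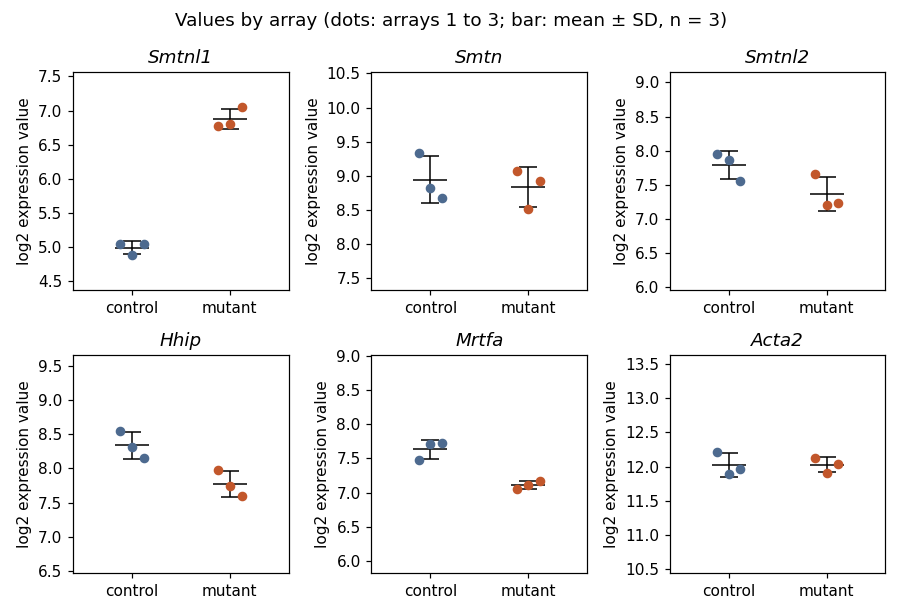
Log2 expression values (y axis, each panel spanning 3.2 log2 units) of 6 genes in control and mutant airways, with a dot per array and bars for the mean ± SD (n = 3). The groups lie apart for Smtnl1, Hhip and Mrtfa and overlap for Smtn, Smtnl2 and Acta2.

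Hhip, which encodes a protein that binds hedgehog ligands and limits their signal, was the member with the next smallest p. It read 8.55, 8.32 and 8.15 in controls and 7.98, 7.74 and 7.59 in mutants, so every mutant lay below every control. The log2 difference of -0.57 (SE 0.14, 95% interval -0.92 to -0.22) did not pass over all genes (limma adjusted p = 0.276). In the 17 other settings the Hhip difference ran from -0.78 to -0.45, with an adjusted p of 0.101 at the lowest. With groups fully apart, leaving out arrays could not change its sign. In the same pathway, Shh, the hedgehog ligand made by airway epithelium, read 6.21, 6.57 and 6.75 in controls and 6.12, 5.63 and 6.10 in mutants. All 3 mutants were again below the controls, without passing (log2 difference -0.56, adjusted p = 0.415). Ptch1, the hedgehog receptor, and Gli1, its transcriptional target, were looked up after these values were seen and differed by -0.01 and -0.12.

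Among the actins and thin-filament proteins, 13 genes in all, Smtnl1 was the only one to pass. Acta2 read 12.22, 11.89 and 11.96 in controls and 12.13, 11.91 and 12.04 in mutants. Its log2 difference was 0.00 with a 95% interval of -0.28 to 0.28, so a change as large as that of Smtnl1 lay outside the interval. Actg2, the gamma actin of smooth muscle, read 11.09, 10.81 and 10.89 in controls and 11.22, 10.70 and 11.10 in mutants. Mutant 2 was the lowest of all arrays and mutant 1 the highest, and the difference was 0.08 (SE 0.16). Tagln, which encodes the actin-binding transgelin, differed by 0.03 (SE 0.11) and Cnn1, calponin 1, by 0.09 (SE 0.13). Cnn2, a calponin also made outside muscle, was the one member for which control 1 was the lowest of all arrays, at 9.12 against 9.32 to 9.50 elsewhere. The tropomyosin genes Tpm1 (0.08), Tpm2 (-0.08) and Tpm4 (-0.0004) and the caldesmon gene Cald1 (0.10) had differences near 0. Lmod1, leiomodin 1, which nucleates actin filaments, read 8.44, 7.75 and 7.69 in controls and 8.33, 7.92 and 8.24 in mutants. Its difference of 0.21 (SE 0.22) rose to 0.57 without control 1 and mutant 2 and then passed (limma adjusted p = 0.0387). That fit called 963 of all 19938 genes, against 53 with all arrays. Without controls 2 and 3 the Lmod1 difference was -0.27.

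Myosin and its kinase showed no called member among 5. Myh11, the smooth muscle myosin heavy chain, read 11.72, 11.04 and 11.01 in controls and 11.47, 10.97 and 11.16 in mutants. Control 1 was the highest array, the groups overlapped, and the difference was -0.06 (SE 0.22, 95% interval -0.60 to 0.48). Myh10, a non-muscle myosin heavy chain, differed by 0.08. The regulatory light chain gene Myl9 differed by -0.04 and Mylk, the light chain kinase that starts contraction, by -0.09 (95% interval -0.40 to 0.22). Myl6, the essential light chain, was named by 6 rows, all of which differed by between 0.02 and 0.095. Copies of Myl6 elsewhere in the genome could share its signal, and this was not tested.

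Intermediate filaments and anchors gave no called member either, but held the genes that varied most within groups. Des, desmin, read 11.14, 10.83 and 10.71 in controls and 11.26, 10.52 and 10.97 in mutants, with both extremes among the mutants. Vim, vimentin, differed by -0.21 (SE 0.16) and Synm, the desmin-binding synemin, by -0.05. Ldb3, a Z-disc protein of striated muscle also called Cypher, read 9.64, 7.86 and 7.90 in controls and 8.26, 8.45 and 7.80 in mutants. Control 1 lay 1.76 above the mean of the other controls, which gave Ldb3 the largest SE of the set (0.49) for a difference of -0.30. Pgm5, a dense-plaque protein, showed the same array apart, with 8.59 in control 1 against 7.47 and 7.22 in the other controls. Synpo2, which bundles actin at Z-discs and dense bodies, stood at 9.87 in control 1 and at 8.99 and 8.86 in the other controls. The plaque proteins Vcl (0.21), Actn1 (-0.09), Flna (0.01) and Tns1 (0.09) and the LIM protein gene Csrp1 (0.12) differed by less than 2 standard errors each. Tns1, tensin 1, was named by 6 rows with differences from -0.03 to 0.46. The row at 0.46, the dimmest, read 7.65, 7.01 and 7.67 in controls and 7.95, 7.78 and 7.98 in mutants. Its groups thus lay apart, but the counts use only the brightest row, where they overlapped.

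The regulators did not pass. Myocd, myocardin, read 8.69, 7.77 and 7.97 in controls and 8.61, 8.06 and 8.34 in mutants (log2 difference 0.20, SE 0.26). Srf read 9.26, 9.12 and 8.93 in controls and 9.02, 8.41 and 9.04 in mutants (-0.28, SE 0.19), with mutant 2 lowest. Mrtfa, the gene listed as Mkl1, read 7.48, 7.70 and 7.72 in controls and 7.06, 7.11 and 7.16 in mutants. Every mutant lay below every control, as groups lay apart in either direction for 15.0% of all genes. The difference of -0.52 (SE 0.10, 95% interval -0.76 to -0.29) did not pass over all genes (limma adjusted p = 0.138).

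SRF acts through the CArG box, so promoters of members with such boxes are shown. Any part of these boxes in the array pattern described next was not tested. The share of members with a box is no independent result, because SRF is known to switch on most of these genes. An exact CArG box was found in the 250 bases before the start of 6 of the 28 members with a RefSeq window, against 1.62% of 27025 genes. Those 6 were Cnn2, Ldb3, Myl6, Myl9, Srf and Vcl. Actg2, Tagln, Myh11 and Myocd had no window and were not searched. Boxes that differ by a letter or lie further away were not counted, so the other members may hold boxes. In the runs below (GRCm38.p6), capitals mark CArG boxes and, in Vcl, also the letters GGAATG of the MCAT element bound by TEAD factors. The windows are chr17:46556163-46556412 on the minus strand for Srf, chr2:156775214-156775463 on the plus strand for Myl9 and chr14:20929148-20929397 on the plus strand for Vcl.
Srf: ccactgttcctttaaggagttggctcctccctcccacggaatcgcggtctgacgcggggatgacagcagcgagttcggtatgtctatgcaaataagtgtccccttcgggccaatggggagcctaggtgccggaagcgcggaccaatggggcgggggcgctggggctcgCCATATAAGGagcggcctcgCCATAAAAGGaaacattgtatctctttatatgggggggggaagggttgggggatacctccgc
Myl9: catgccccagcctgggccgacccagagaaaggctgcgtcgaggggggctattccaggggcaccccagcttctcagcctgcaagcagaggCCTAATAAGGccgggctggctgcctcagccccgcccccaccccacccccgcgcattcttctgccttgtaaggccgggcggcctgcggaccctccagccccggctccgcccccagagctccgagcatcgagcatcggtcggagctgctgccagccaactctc
Vcl: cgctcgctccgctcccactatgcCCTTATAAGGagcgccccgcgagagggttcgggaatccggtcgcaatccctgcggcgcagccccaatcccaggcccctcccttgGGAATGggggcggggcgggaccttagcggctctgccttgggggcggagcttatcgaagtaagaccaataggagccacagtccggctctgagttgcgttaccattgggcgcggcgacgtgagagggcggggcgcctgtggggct
The Srf promoter held a pair of boxes, the first beginning 82 and the second 62 bases before the start, and the box of Myl9 began 161 bases before it. The remaining boxes read CCTTATAAGG in Cnn2, CCATTTATGG in Ldb3 and CCTTATATGG in Myl6. The MCAT letters CATTCC or GGAATG were found in 10 of the 28 members, Acta2, Flna, Lmod1, Mylk and Smtn among them, against 14.4% of genes. The GLI letters (GACCACCCA) were found in no member's window, against 0.255% of genes. Letters this rare are seldom met among 28 members, so their absence tells nothing about Hhip or any other member. All motifs were searched on both strands. No matches of different motifs overlapped in any member's window. No member with a CArG box or MCAT letters was called. As only 1 of 32 members and 0.266% of all genes were called, this tells nothing about these letters.

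Across arrays, most members were high or low in the same samples. Control 1 was the highest of the controls for 30 of 32 members, against 43.1% of all genes, and the highest of all 6 arrays for 20 members, against 20.3% of all genes. The exceptions within the controls were Cnn2 and Smtnl1. The median member lay 0.34 above the other controls in control 1, where the median gene lay 0.03 above them. Among the mutants, mutant 2 was the lowest for 18 members, against 42.3% of all genes, and these included Acta2, Actg2, Tagln, Cnn1, Myh11, Myl9, Des, Srf and Myocd. For 8 members mutant 2 was the highest mutant instead, namely Tpm1, Tpm4, Cald1, Myh10, Vim, Vcl, Tns1 and Ldb3. Of these, Tpm4 and Cald1 had their highest value of all arrays there.

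**Figure D3:**
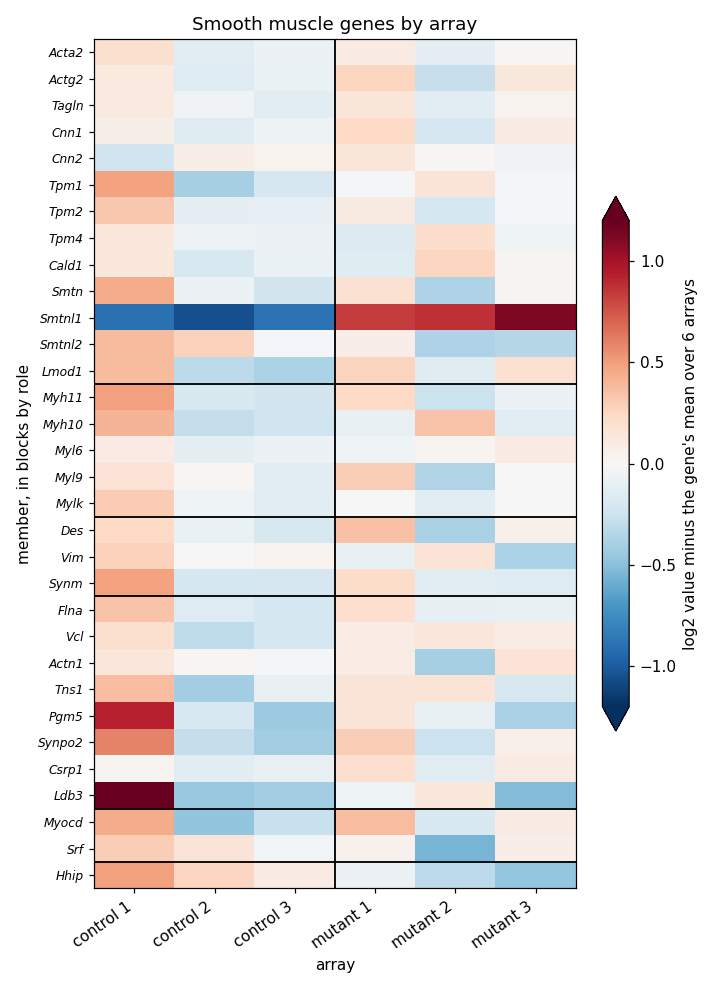
Log2 value minus the gene's mean over the 6 arrays (colour) for each member (y axis, in blocks by role, from actins at the top to Hhip at the bottom) and array (x axis). Smtnl1 is low in all controls and high in all mutants, and control 1 is above the other controls for 30 of 32 members.

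Without control 1 and mutant 2, the median log2 difference over the members was 0.20 with 27 of 32 above 0, and without controls 2 and 3 it was -0.33 with 29 below 0. Both settings were chosen with earlier results of these data known. Taking out control 1 alone moved the median to 0.15, and taking out mutant 2 alone moved it to 0.06. Control 1 was the highest control for 30 of 32 members, and mutant 2 the lowest mutant for 18. The directions of the shifts in both chosen settings therefore followed from the arrays left out and are no separate result. Over the fits without 1 array the median ran from -0.06 to 0.15, so its sign varied there too. For Smtnl1 and Hhip the groups lay fully apart, so leaving out arrays could not change their sign.

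Markers of other tissues that a dissected airway can carry differed between the same arrays. The mean over 12 cardiac muscle markers, known also from the muscle sleeve of pulmonary veins, was 10.84, 8.43 and 9.13 in controls and 9.23, 10.56 and 7.95 in mutants. Nppa, the atrial natriuretic peptide gene, ranged from 5.58 in mutant 3 to 11.66 in mutant 2. Control 1 and mutant 2 were thus the arrays with most cardiac signal, and Ldb3 had its 2 highest values in these arrays as well. The mean over 9 adipocyte markers followed them, with 8.99, 6.76 and 7.26 in controls and 7.47, 8.11 and 7.07 in mutants. B and T cell markers ran the other way within the controls, with means of 6.26, 9.06 and 8.83, against 5.71, 7.54 and 5.90 in mutants. Their median log2 difference of -1.70 was the furthest from 0 among the marker lists. All 9 measured genes lay below 0, against 9057 of all 19938 genes. The median was -0.11 for cardiac and -0.08 for adipocyte markers. No marker of these lists passed, and their part in the members' array pattern was not tested. The mean over all 32 members was 10.09, 9.64 and 9.63 in controls and 9.94, 9.72 and 9.79 in mutants.

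The mean over 10 markers of pericytes and vascular smooth muscle was 8.19, 7.62 and 7.68 in controls and 7.92, 7.86 and 7.49 in mutants, with a median log2 difference of -0.04. The mean over 10 airway epithelial markers was 10.45, 10.25 and 10.03 in controls and 10.65, 10.10 and 10.55 in mutants, with a median difference of 0.22 and 9 of 10 above 0. Fibroblast markers had a median difference of -0.21, endothelial markers of -0.01 and cartilage markers of -0.05, and no marker in these lists was called.

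**Figure D4:**
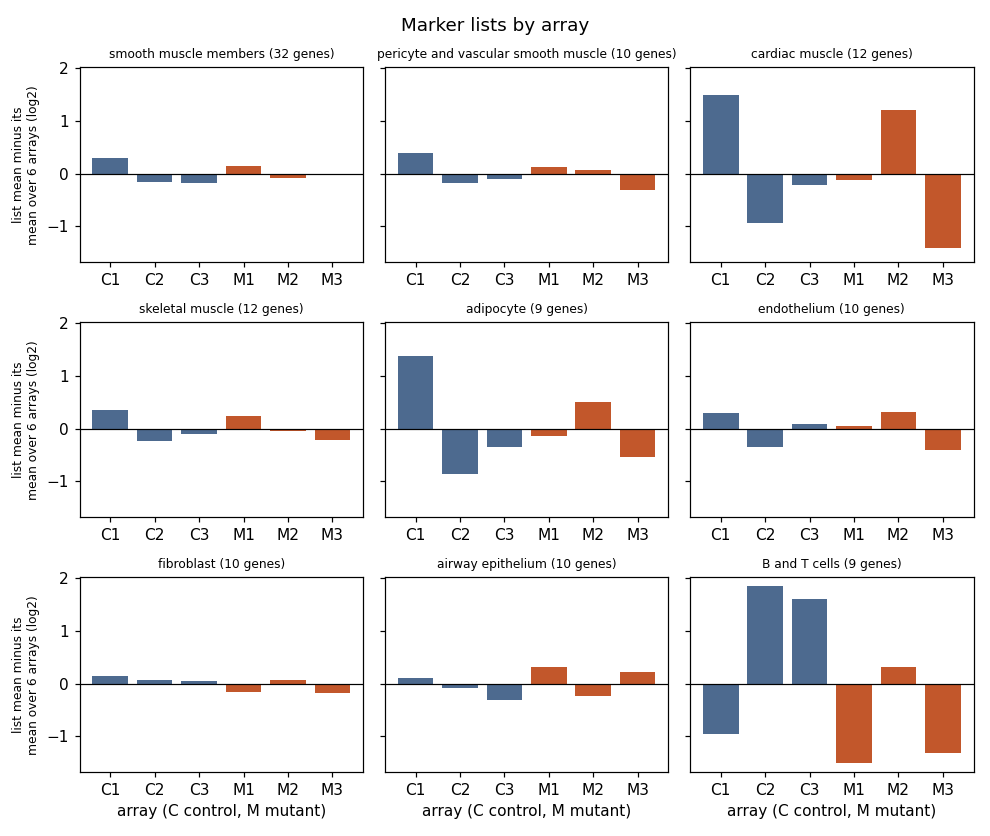
Mean log2 value of each list on each array minus the list's mean over the 6 arrays (y axis), for the smooth muscle members and 8 marker lists; C1 to C3 are controls and M1 to M3 mutants. Cardiac and adipocyte markers are highest in C1 and M2, and smooth muscle members are highest in C1 and M1.

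The rest of the contraction pathway was read from 5 lists with 89 measured genes, of which limma called none, against 0.266% of all genes. At an unadjusted p under 0.05 there were 11, against 10.1% of all genes. An ordinary per-gene t statistic called none of all 19938 genes, so its lack of calls among the 89 adds nothing. It gave 4 of 89 at that unadjusted p, against 1679 of all 19938 genes. Among 14 genes of calcium handling the smallest p belonged to Orai1 (0.23), Camk2g (-0.20) and Calm2 (0.17), and the list's median was 0.05.

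Of 16 measured receptor genes of airway smooth muscle, 12 had a log2 difference below 0, with a median of -0.14 and none called. Tacr1, the receptor of substance P, read 7.86, 8.84 and 8.57 in controls and 6.33, 5.33 and 5.62 in mutants (-2.66, SE 0.33, limma adjusted p = 0.0519). Under 6 of 17 alternatives it was called, among them the fit without control 1. Chrm3, the muscarinic receptor through which methacholine contracts muscle, read 6.96, 6.53 and 5.65 in controls and 5.77, 5.45 and 5.50 in mutants. The lowest control lay among the mutants, and the difference of -0.80 (SE 0.32) did not pass (adjusted p = 0.482). Bdkrb2, a bradykinin receptor, differed by 0.46. Among 30 other cytoskeletal and SRF target genes, with a median of 0.09, the smallest p belonged to Csrp2 (-0.40, adjusted p = 0.280), a smooth muscle LIM protein, and to the integrin genes Itga5 (0.69) and Itga7 (0.46). Among 19 regulators of the smooth muscle programme, with a median of -0.09, they were Tgfb1 (-0.68), Mef2c (-1.11) and Shh. Mef2c read 8.11, 9.37 and 9.01 in controls and 7.61, 8.12 and 7.42 in mutants. It was thus highest in controls 2 and 3, as the B and T cell markers were. The part of such cells in its difference was not tested.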

How the data were processed

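RNA from 6 airway samples was read on Affymetrix mouse gene arrays. The deposited log2 values were made by the authors with oligo and RMA, per the submitters' processing notes, which also name limma. Tool versions and genome build: not given in the sources used here. No scanner file or scan date was analysed here, so batches were not tested and detection was not called.

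Of 35556 rows, 21789 named exactly 1 gene, 1621 several (among them 1 naming Tpm4) and 12146 none, leaving 19938 genes. limma 3.58.1 (R 4.3.3; lmFit, eBayes, genotype only) was fitted to all genes as deposited, with Benjamini-Hochberg adjustment and a threshold of 0.05. Intervals are limma's, at 95% and unadjusted. The code was tested on simulated data. Replicates are separate samples by label, and whether they are separate mice is not stated, so the p-values reflect only the spread among these samples, which may be technical. No arrays were identical.

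Members and lists were chosen with earlier results of these data known. Named were all members, the study's genes, the 3 smallest p of each pathway list (1 of the 5 lists is not reported here beyond its part in the summed count), and selected markers of highest mean, plus Ptch1, Gli1, Cyp2f2, Nppa and the neighbours of Smtnl1, picked afterwards. RefSeq sequences are of GRCm38.p6. Tables and figures used Python 3.11.15, pandas 2.3.3 and matplotlib 3.10.9.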

Additional observations from a re-analysis of the deposited data

How the results depend on the processing

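The call of Smtnl1 held when the deposited values were normalised or centred again, with array weights, an intensity trend or robust eBayes, without the lowest 40% of genes, with the mean of a gene's rows and without any 1 array (1 member called in each, range 1 to 1). Members called fell to 0 with the replicate number as a block, with the ordinary t statistic and without controls 2 and 3, and rose to 2 without control 1 and mutant 2. Genes called, 53 in all, were 0 with the replicate block, 0 with the ordinary t statistic, 291 with array weights, 82 with the intensity trend, 963 without control 1 and mutant 2, 0 without controls 2 and 3, and 9 to 388 without 1 array. Other contraction genes called, 0 of 89, were 1 (Tacr1) after median centring, the filter, array weights or the intensity trend, 6 without control 1 and mutant 2, and 0 to 2 without 1 array, where 2 were reached without control 1 (Mef2c and Tacr1). The members' median log2 difference ranged from -0.06 to 0.15 without 1 array and was 0.20 without control 1 and mutant 2 and -0.33 without controls 2 and 3. The cause of these shifts was not tested. Only Smtnl1, Hhip, Smtnl2, Vim and Csrp1 kept their sign in all 17 settings, and 5 members changed sign on repeated quantile normalisation. For Smtnl1 and Hhip, whose groups lay fully apart, leaving out arrays could not change the sign. The replicate block, intensity trend, robust eBayes and ordinary t statistic leave every difference as it was, so they cannot change a sign either. Deviations of same-numbered arrays correlated at 0.14, -0.09 and -0.04. With 3 arrays per group, these values cannot settle whether the numbers pair samples. With the replicate number as a block in limma, the adjusted p of Smtnl1 was 0.0717. The number of arrays and the dim control signal of Smtnl1 limit what can be read.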
